A study of Mus musculus with 9 samples.

Results

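The Krüppel-like factors (KLF) and the SOX factors are 2 families of DNA-binding transcription factors. Their mouse genes were followed here in cells labelled as hepatic stellate cells, the vitamin A-storing pericytes of the liver. All non-control probes whose gene name was Klf or Sox followed by a number were taken, which gave 66 of the 56605 probes on the array and 36 gene names, 17 KLF and 19 SOX. Of these, 51 probes and 31 genes (15 KLF and 16 SOX) gave enough signal to be tested, out of 36817 probes and 23965 genes in all. The genes never tested were Klf8, Klf14, Sox2, Sox3 and Sox30, whose probes did not stay above background on all 3 arrays of any group.

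The arrays were single-colour Agilent expression arrays, 9 in number, with 3 in each of 3 groups. All cells were labelled as primary stellate cells of C57BL/6 mice aged 10 weeks. They were isolated by collagenase perfusion in a pair of steps and grown in 1640 medium with fetal bovine serum. The quiescent group carries no treatment in the labels, and its time of harvest is not given there. The control-siRNA group (labelled nc) was kept for 7 days on a hard plate and then transfected overnight with a negative control siRNA at 5 nM with Lipo3000. The Cav1-siRNA group (labelled si-cav) was handled in the same way with an siRNA that targets Cav1, which encodes caveolin-1, the coat protein of caveolae. Nothing in the labels tells whether samples of 1 group are separate animals or cultures, so the p-values reflect the spread among these samples alone, which may be technical. Time in culture, the hard surface and the transfection all separate the quiescent group from the other arrays and cannot be told apart.

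KLF proteins carry zinc fingers at the C-terminal end and bind GC-rich and CACCC sequences, and they are grouped by the cofactors that their N-terminal ends recruit. SOX proteins bind DNA in the minor groove through a high-mobility-group (HMG) box and bend it, and they are grouped by letter according to how alike their HMG boxes are. In the liver, KLF6 is known as an early-response factor of stellate cell activation, SOX9 as a regulator of bile duct identity and of matrix genes in myofibroblasts, KLF2 and KLF4 as flow-responsive factors of endothelium, and the SOXF factors (SOX7, SOX17 and SOX18) as factors of endothelial identity.

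The libraries were first checked against their labels. Cav1 signal, on a log2 scale relative to each array's 75th percentile as all signals here, was -1.34, -1.12 and -1.09 with the control siRNA and -2.87, -2.89 and -3.07 with the Cav1 siRNA, a level of 29.4% (95% confidence interval 20.2 to 42.9%) of the control, although its adjusted p was 0.145 (0.00088 to 0.71 over 21 alternatives). Over all genes tested, 42.1% rose and 26.0% fell from quiescent to control-siRNA cells at an adjusted p under 0.05 in limma. All 12 activation genes rose in control-siRNA cells over quiescent cells, led by Lox, Timp1 and Acta2 (log2 changes 10.02, 8.73 and 8.37). Of 10 stellate cell markers tested, 3 rose and 4 fell; Lrat, the enzyme that stores vitamin A as retinyl ester, was at least 104-fold lower, Rgs5 was at least 67.6-fold lower and Pdgfrb rose by 4.51 on the log2 scale, while Des and Gfap were not testable. The quiescent arrays also carried markers of other liver cells: all 12 hepatocyte, 12 Kupffer cell and 10 lymphocyte and neutrophil markers tested were higher there. Pck1, Fabp1 and Hnf4a were at least 11854-fold, 5544-fold and 5117-fold lower in control-siRNA cells, Clec4f, Vsig4 and Timd4 at least 4034-fold, 596-fold and 325-fold, S100a9 and Gzmb at least 733-fold and 662-fold, and Nkg7 fell by 8.84 on the log2 scale. Alb, the defining hepatocyte gene, fell by 13.00. On the quiescent arrays the log2 of the summed stellate marker signal ran from 4.78 to 6.27. The hepatocyte sum ran from 10.06 to 10.39, the endothelial sum from 8.36 to 9.12 and the Kupffer cell sum from 8.15 to 8.96. These sums are over different genes and are not shares of cells. The quiescent signals therefore cannot be assigned to stellate cells alone. In these bulk samples, fewer cells of a type and less RNA per cell cannot be told apart.

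Control-siRNA cells had lower signal than quiescent cells for most of the KLF and SOX genes. Of the 31 genes tested, 22 passed an adjusted p of 0.05, against a background of 68.1% of all genes tested. They divided into 6 that rose, where 42.1% of all genes did, and 16 that fell, where 26.0% did. With a change of at least 2-fold also required, 5 rose (background 28.9%) and 12 fell (background 19.0%). Groups did not overlap for 23 genes (background 69.8%), 7 of them higher (42.8%) and 16 lower (27.0%) in control-siRNA cells. The median change of the 31 genes was -0.68 on the log2 scale, beside 0.32 over all genes tested, so the typical member lay below the typical gene. Among the KLF genes 2 rose and 8 fell (median -1.60), and among the SOX genes 4 rose and 8 fell (median -0.35). Of the 22, Klf1, Klf5, Sox6, Sox7, Sox11, Sox12, Sox17 and Sox18 entered the tests only through groups where they were high. Their calls rest partly on signals below background and were in part fixed by that filter, so they give no separate support. With a filter on all 9 arrays these genes were not tested, 14 of the 22 calls were kept and Klf3 was added. Arrays lay on 2 slides, and only control-siRNA array 1 shared a slide with the quiescent arrays; against that array alone 14 genes passed, where 31.8% of all genes did, and Klf4, Klf7, Klf16, Sox1, Sox9, Sox11, Sox15 and Sox21 did not. With the slide as a block 19 passed, and 52.4% of all genes. Leaving out quiescent array 1 brought in Klf17 (23 passed), array 2 Klf3 and Klf10 (24 passed), and array 3 Klf3, Klf6, Sox8 and Sox10 but not Sox15 (25 passed).

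**Figure D1:**
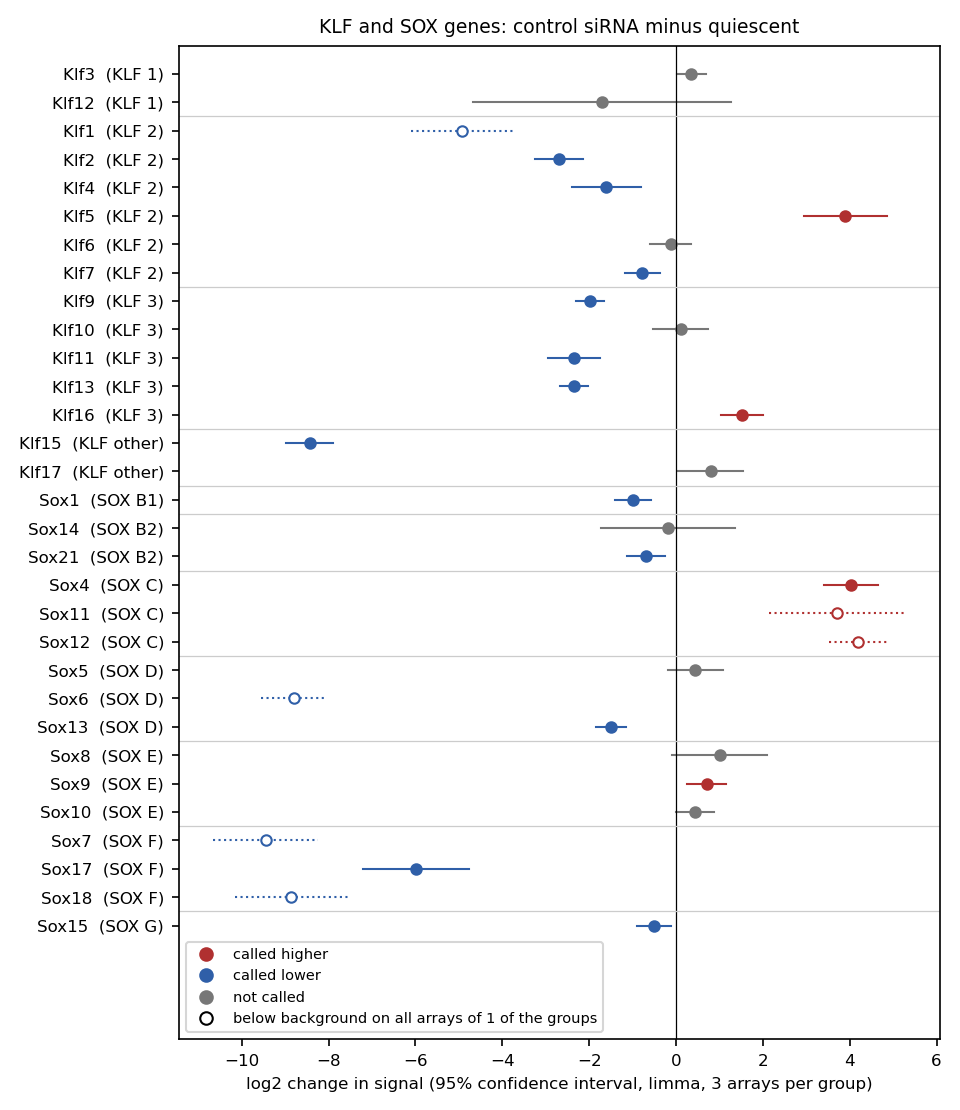
Log2 change in signal from quiescent to control-siRNA cells for the 31 genes tested, ordered by subfamily, with 95% confidence intervals from limma (3 arrays per group); red points were called higher, blue lower, grey neither, and open points with dotted intervals mark genes below background on all arrays of 1 of the groups, whose plotted size is not exact. The SOXC genes (Sox4, Sox11 and Sox12) lie together near 4, the SOXF genes (Sox7, Sox17 and Sox18) between -9.45 and -5.99, and the KLF genes spread from -8.44 (Klf15) to 3.90 (Klf5).

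The KLF proteins that recruit histone acetyltransferases (group 2: Klf1, Klf2, Klf4, Klf5, Klf6 and Klf7) divided into 4 genes that fell, 1 that rose and 1 that did not pass. Klf2, which holds endothelial cells and lymphocytes in a quiescent state, gave 5.26, 5.30 and 4.33 in quiescent cells, 2.20, 2.34 and 2.26 with the control siRNA and 2.11, 2.06 and 1.99 with the Cav1 siRNA. Every quiescent array stood above every cultured array, with quiescent array 3 the lowest of its group. The fall from quiescent to control-siRNA cells was 6.49-fold (log2 change -2.70, SE 0.25, adjusted p = 1.1e-05). Klf4, a barrier and differentiation factor and one of the reprogramming factors, gave 5.00, 5.46 and 3.87 in quiescent cells, 3.16, 3.21 and 3.14 with the control siRNA and 2.78, 3.13 and 3.00 with the Cav1 siRNA. Again quiescent array 3 was the lowest of its group, and the groups did not overlap. Klf4 fell 3.03-fold (log2 change -1.60, SE 0.35, adjusted p = 0.0028), and on the shared slide alone the change was -1.62 with an adjusted p of 0.11 (3.0e-05 to 0.11 over 22 alternatives).

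Klf6 gave 4.30, 4.25 and 3.51 in quiescent cells, 3.91, 3.87 and 3.91 with the control siRNA and 4.14, 4.01 and 3.95 with the Cav1 siRNA. The control-siRNA arrays lay inside the range of the quiescent ones, whose array 3 was low for this gene as for Klf2 and Klf4. The log2 change was -0.12 (95% confidence interval -0.60 to 0.36, adjusted p = 0.63). Without quiescent array 3 it was -0.38 with an adjusted p of 0.019 (0.019 to 0.99 over 22 alternatives), so this array decides whether Klf6 passes. Klf7, a relative of KLF6 that is best known in neurons and fat cells, fell 1.71-fold (log2 change -0.77, SE 0.18, adjusted p = 0.0042), and its 3 kept probes were all called lower. On a second probe of Klf7 the control-siRNA array on the quiescent slide, at 1.83, lay within the quiescent range of 1.62 to 2.44, while the other control-siRNA arrays were at 0.90 and 0.93.

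Klf1, the erythroid factor that switches on adult globin, was above background on the 3 quiescent arrays, at -2.11, -3.79 and -2.51, and on no cultured array. It was at least 10.1-fold lower in control-siRNA cells, with measured means of -2.81 and -7.74. Klf5, which drives proliferation in epithelium and smooth muscle, moved the other way. Its signals were -4.65, -6.01 and -6.69 on the quiescent arrays, 1 of them above background, -1.90, -1.93 and -1.83 with the control siRNA and -1.78, -1.68 and -1.76 with the Cav1 siRNA. The quiescent arrays were all below the cultured ones, and the rise was 14.9-fold (log2 change 3.90, SE 0.42, adjusted p = 3.5e-05). A second, dimmer Klf5 probe was above background on no quiescent array, and its groups overlapped. It was called higher in limma (log2 change 1.03, adjusted p = 0.045) but gives no lower bound on the fold. On both probes the size is uncertain, because most quiescent signals were below background.

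The KLF proteins that recruit the Sin3A corepressor (group 3) held 3 genes that fell, 1 that rose and 1 that did not pass, and Klf14 was not tested. Klf9, a glucocorticoid- and thyroid hormone-induced repressor, gave 3.82, 4.08 and 4.11 in quiescent cells, 2.10, 1.95 and 2.02 with the control siRNA and 1.82, 1.68 and 1.59 with the Cav1 siRNA. The 3 groups lay one below the other with no overlap. The fall from quiescent to control-siRNA cells was 3.95-fold (log2 change -1.98, SE 0.14, adjusted p = 1.9e-06), and the second Klf9 probe fell by 2.22 on the log2 scale. Klf11, a TGF-beta-inducible repressor, gave -2.89, -2.08 and -2.60 in quiescent cells, -5.19, -4.81 and -4.62 with the control siRNA and -4.79, -4.50 and -5.22 with the Cav1 siRNA. Both cultured groups were below every quiescent array, a fall of 5.10-fold (log2 change -2.35, SE 0.27, adjusted p = 4.7e-05).

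Klf13, known for its part in T-cell chemokine expression and in the heart, gave 2.46, 2.18 and 2.12 in quiescent cells, -0.09, -0.11 and -0.09 with the control siRNA and -0.38, -0.25 and -0.40 with the Cav1 siRNA. It fell 5.10-fold (log2 change -2.35, SE 0.14, adjusted p = 5.6e-07), and its 2 other probes fell by 1.93 and 4.35 on the log2 scale. Klf16, a repressor linked to metabolism, rose from -0.52, 0.36 and -0.24 in quiescent cells to 1.36, 1.44 and 1.37 with the control siRNA, and gave 1.52, 1.46 and 1.46 with the Cav1 siRNA. The rise was 2.87-fold (log2 change 1.52, SE 0.21, adjusted p = 0.00018), and on the shared slide alone its adjusted p was 0.058 (6.4e-06 to 0.058 over 22 alternatives). Klf10, another TGF-beta-inducible early gene, gave 1.22, 2.45 and 1.65 in quiescent cells and 1.81, 1.93 and 1.91 with the control siRNA, and the groups overlapped (log2 change 0.11, adjusted p = 0.74).

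Members of the family share coding sequence through their zinc fingers, which bears on what a 60-base probe measures. The brightest Klf5 probe (mm9 chr14:99702656-99712388) and the brightest Klf13 probe (mm9 chr7:71082854-71082913) are among the most alike probes of different KLF and SOX genes, with 29 identical bases of 40 aligned. They are shown because Klf5 rose and Klf13 fell; capitals mark the identical bases.
Klf5: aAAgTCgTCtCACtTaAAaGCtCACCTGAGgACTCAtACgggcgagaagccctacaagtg
Klf13: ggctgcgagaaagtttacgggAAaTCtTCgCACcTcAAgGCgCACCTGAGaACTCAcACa
The signals of the pair moved in opposite directions between the same arrays, by 3.90 and -2.35 on the log2 scale.

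Klf15 lies outside the 3 cofactor groups and controls amino acid and glucose metabolism in liver and muscle under glucocorticoid and circadian control. It gave 4.83, 4.23 and 5.23 in quiescent cells, -3.75, -3.70 and -3.58 with the control siRNA and -3.29, -3.58 and -3.42 with the Cav1 siRNA. The cultured arrays were far below the quiescent ones but still above background. The fall was 347-fold (log2 change -8.44, SE 0.24, adjusted p = 6.9e-09). Klf17, the other gene of this set, gave -4.73, -5.96 and -5.36 in quiescent cells, with 1 array above background, and -4.75, -4.85 and -4.07 with the control siRNA (log2 change 0.79, adjusted p = 0.056).

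The CtBP-binding KLF proteins (group 1) had no gene that passed on its brightest probe. Klf3, a repressor active in blood and fat cells, gave 3.19, 3.53 and 3.57 in quiescent cells and 3.74, 3.89 and 3.74 with the control siRNA (log2 change 0.36, adjusted p = 0.054). Its 2 other probes gave changes of 0.62 (adjusted p = 0.011) and -0.28 (adjusted p = 0.081). The brightest Klf12 probe (mm9 chr14:100548495-100548554) gave -5.37, 0.79 and -4.20 in quiescent cells and -5.29, -4.57 and -4.05 with the control siRNA. Quiescent array 2 stood apart, and the log2 change of -1.70 (SE 1.31, adjusted p = 0.27) became 0.15 without it. The 2 other kept Klf12 probes, the nearer of them 278 kb away, gave steady quiescent signals of 0.10, -0.51 and 0.72 and of 0.64, -0.26 and 1.20. They fell by 7.25 on the log2 scale and at least 102-fold, both called, so the brightest probe and the others describe Klf12 differently.

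**Figure D2:**
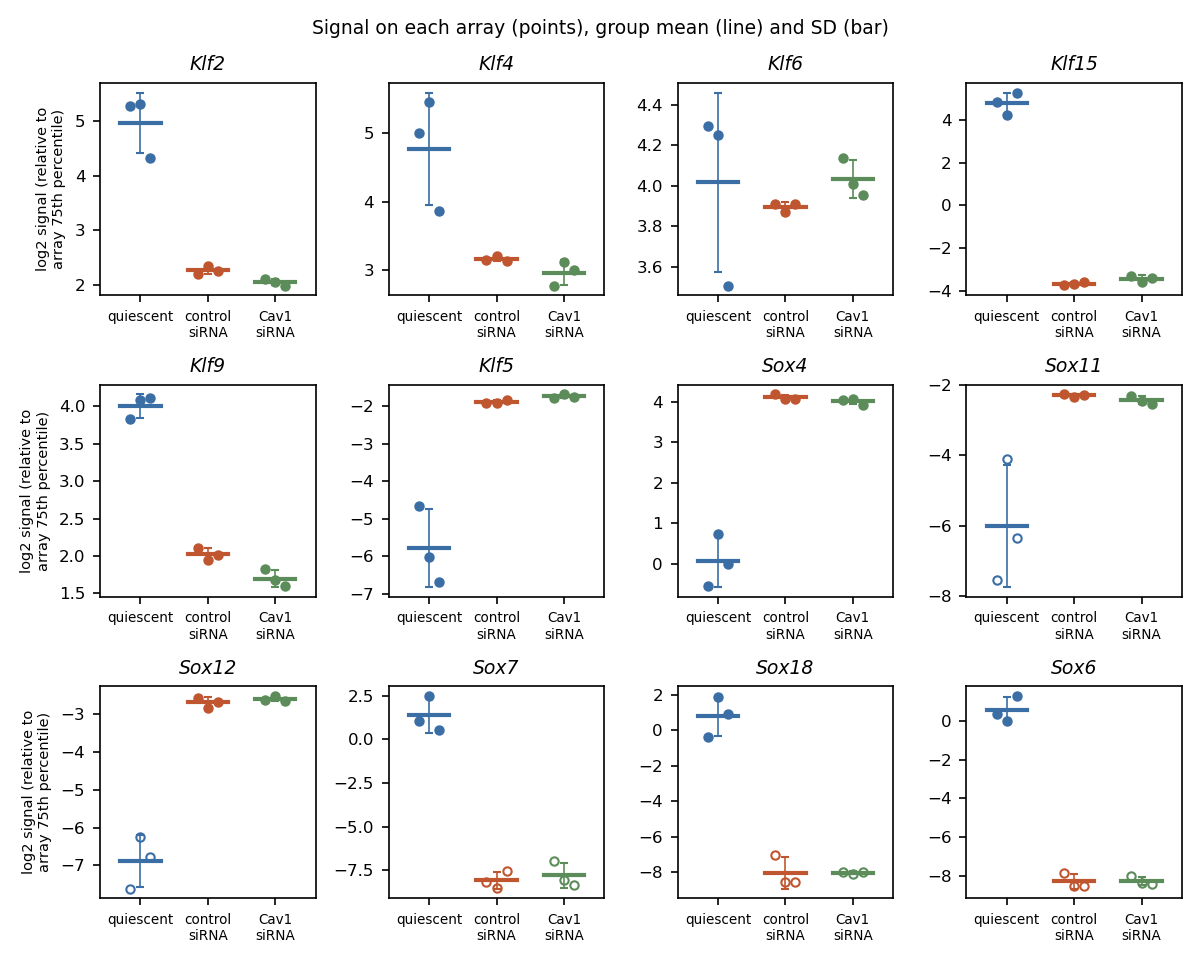
Log2 signal of 12 genes on each of the 9 arrays (points), relative to the array's 75th percentile, with the group mean (line) and SD (bar); open points mark groups in which no array was above background, and each panel has its own scale. Klf2, Klf4, Klf9, Klf15, Sox6, Sox7 and Sox18 are higher on all 3 quiescent arrays, Klf5, Sox4, Sox11 and Sox12 are lower there, Klf6 overlaps, and quiescent array 3 is the lowest of its group for Klf2, Klf4 and Klf6.

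Promoters of the members were taken from RefSeq (GRCm38.p6), as the 250 bases before each start, and 32 windows of 26 member genes were found. Sox6 and Klf8 gave several windows each. No window was found for Klf5, Klf10, Klf14, Klf16, Sox3, Sox7, Sox9, Sox10, Sox17 and Sox18. The shares below therefore count windows and do not describe every member. The GC box GGGCGG, the sequence that KLF and SP proteins bind, was present on either strand in 19 of 32 member windows (59.4%) and in 32.7% of 32851 windows of all genes. CACCC, the other KLF sequence, was found in 50% of member windows and 52% of all, and CCAAT in 50% and 33.8%. The E-box CACGTG, which clock and MYC-type factors bind, was in 5 member windows (15.6%), those of Klf4, Klf6, Klf11, Klf15 and Sox8, and in 6.02% of all. The cyclic AMP element TGACGTCA was in no member window and in 1.55% of all. These windows are rich in G and C, with a median of 61.4% beside 52.4% for all windows and 17 CG pairs beside 6. The windows of 3 genes that fell are printed 5′ to 3′ with GGGCGG, its reverse complement CCGCCC and CACGTG in capitals: Klf2 (chr8:72318812-72319061, plus strand), Klf4 (chr4:55532476-55532725, minus strand) and Klf15 (chr6:90462326-90462575, plus strand).
Klf2: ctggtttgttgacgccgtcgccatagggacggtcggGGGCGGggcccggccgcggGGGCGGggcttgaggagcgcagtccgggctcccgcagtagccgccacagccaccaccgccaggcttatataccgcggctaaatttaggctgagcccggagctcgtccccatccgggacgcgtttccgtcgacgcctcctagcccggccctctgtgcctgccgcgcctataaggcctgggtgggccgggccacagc
Klf4: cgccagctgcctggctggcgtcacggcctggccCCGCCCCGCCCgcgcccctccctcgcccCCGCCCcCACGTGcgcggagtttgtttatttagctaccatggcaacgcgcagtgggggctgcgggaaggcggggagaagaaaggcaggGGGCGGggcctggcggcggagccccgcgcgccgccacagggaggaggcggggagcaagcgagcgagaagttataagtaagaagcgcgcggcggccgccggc
Klf15: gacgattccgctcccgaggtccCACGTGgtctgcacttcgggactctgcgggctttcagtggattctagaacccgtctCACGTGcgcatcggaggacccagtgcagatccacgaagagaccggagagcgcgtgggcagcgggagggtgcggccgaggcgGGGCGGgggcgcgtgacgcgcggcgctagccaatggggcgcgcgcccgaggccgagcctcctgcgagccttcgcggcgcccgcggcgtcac
The Klf2 window holds 2 GC boxes and no E-box, the Klf4 window 4 GC boxes, 2 of them overlapping, and 1 E-box, and the Klf15 window 1 GC box and 2 E-boxes. A match of letters is a description of the window and does not show that a factor binds there.

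Genes that feed into KLF expression or act with the KLF proteins were described from lists chosen for this purpose. Over all genes tested 42.1% rose and 26.0% fell, with a median log2 change of 0.32. Of 13 clock and steroid-response genes linked to Klf9, Klf10 and Klf15, 9 fell and none rose, with a median log2 change of -1.38. Zbtb16, a glucocorticoid-induced zinc finger gene, fell by 6.32, the clock output gene Dbp by 2.87 and the clock repressor gene Nr1d1 by 2.82. Of 12 genes of the MEK5-ERK5-MEF2 route that induces Klf2 and Klf4 under flow, 6 rose and 3 fell (median 0.34), near all genes. Mef2c fell by 5.94, while Heg1, an endothelial junction receptor, and Piezo1, a stretch-gated channel, rose by 2.55 and 2.51. Of 13 endothelial genes known to respond to KLF2 and KLF4, 4 rose and 9 fell (42.1% and 26.0% of all genes did). Tek was at least 263-fold and Cxcr4 at least 57.6-fold lower, and Kdr had a log2 change of -8.23. This list was not divided by the direction of the known response, so its counts do not show one. Tek and Kdr are also liver endothelial markers, all 12 of which fell, and the part of endothelial RNA in this list was not tested.

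Genes counted as immediate-early genes of tissue dissociation moved with Klf2 and Klf4, while Klf6 did not pass. Of 18 such genes 15 fell from quiescent to control-siRNA cells and none rose, where 26.0% and 42.1% of all genes did. The largest falls were those of Fosb, Atf3 and Zfp36 (log2 changes -8.39, -5.83 and -5.60), and Fos fell by 5.14. The log2 of their summed signal ran from 8.82 to 9.69 on the quiescent arrays, from 6.23 to 6.48 with the control siRNA and from 6.06 to 6.12 with the Cav1 siRNA. On the quiescent arrays the sum was 9.60, 9.69 and 8.82, lowest on array 3, which was also lowest for Klf2, Klf4 and Klf6. All 18 were above background on every array. The part of the immediate-early response in the signals of Klf2, Klf4 and Klf6 was not tested. For Klf9 and Klf15, which hepatocytes also express, the summed hepatocyte markers ran from 10.06 to 10.39 on the quiescent arrays and from 3.92 to 4.29 with the control siRNA, with 12 of 12 and 4 to 5 of 12 markers above background. Their part in the falls of Klf9 and Klf15 was not tested.

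The closest relatives and partners of the KLF proteins held genes that rose and genes that fell, beside 42.1% and 26.0% of all genes (median 0.32). Of 8 SP genes, which share the zinc finger type, 1 rose and 2 fell (median -0.05): Sp3 rose by 0.92 on the log2 scale, Sp4 fell by 1.31 and Sp5 was at least 25.2-fold lower. Of 13 cofactors and turnover genes 5 rose and 2 fell (median 0.22), among them the ubiquitin ligase genes Smurf1 (1.53) and Wwp1 (-1.26) and the deacetylase gene Hdac2 (1.38). Of 10 genes linked to KLF6, 4 rose and 3 fell (median 0.45), with Col1a1 up by 5.89 and the TGF-beta co-receptor gene Eng and the cadherin gene Cdh1 changed by -4.95 and -4.13. The counts of the KLF6-linked genes lie near the shares over all genes, and the signal of Klf6 itself did not pass.

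The SOXC genes, which act in progenitor cells and in tissue growth, all rose. Sox4 gave -0.53, 0.75 and 0.01 in quiescent cells, 4.18, 4.07 and 4.06 with the control siRNA and 4.03, 4.05 and 3.92 with the Cav1 siRNA. The groups were far apart, and the rise was 16.3-fold (log2 change 4.03, SE 0.28, adjusted p = 1.6e-06) with 4.04 on the second probe. Sox11 was above background on no quiescent array and gave -2.27, -2.33 and -2.29 with the control siRNA and -2.32, -2.45 and -2.54 with the Cav1 siRNA. It was at least 6.36-fold higher in control-siRNA cells, with log2 changes from 0.81 to 4.65 over 21 alternatives. Its 2 other probes, also below background on the quiescent arrays, were at least 4.95-fold and 4.23-fold higher. Sox12 was likewise below background on the quiescent arrays and gave -2.57, -2.83 and -2.67 with the control siRNA and -2.62, -2.51 and -2.65 with the Cav1 siRNA. It was at least 4.84-fold higher. Where a group is below background, here and elsewhere, the fold given as at least a value uses the dimmest signal that still counted as above background there. It is a bound for the main processing only and leaves out the spread of the brighter group. Over 21 alternatives the log2 change of Sox12 ran from 0.66 to 4.82 and that of Sox7 from -9.87 to -4.95. The smaller ends of these ranges lie below the bounds given for the 2 genes.

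The SOXF genes all fell. Sox7 gave 1.07, 2.51 and 0.55 in quiescent cells, was above background on no cultured array, and was at least 184-fold lower with the control siRNA. Sox18 gave -0.38, 1.89 and 0.94 in quiescent cells and was likewise below background in culture, at least 125-fold lower. Sox17 gave -0.12, 0.47 and -0.35 in quiescent cells, -5.66, -5.42 and -6.90 with the control siRNA, with 2 of 3 arrays above background, and -7.63, -5.96 and -7.73 with the Cav1 siRNA, with none above it. Each of these genes was present on every quiescent array and at or near the limit of detection in culture. The fall of Sox17 to the control-siRNA cells was 63.6-fold (log2 change -5.99, SE 0.53, adjusted p = 9.5e-06). The probe behind this value (mm9 chr1:4481890-4481949) is shown because the Sox17 probes differ.
Sox17: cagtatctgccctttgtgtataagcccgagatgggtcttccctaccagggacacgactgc
A second Sox17 probe was at least 5.22-fold lower, while another, at mm9 chr1:4487611-4487670 and listed in the opposite coordinate order, changed by -0.16 (adjusted p = 0.65).

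Markers of liver endothelium moved with the SOXF genes. All 12 endothelial markers fell, where 26.0% of all genes did. Cdh5 and Tek were at least 1034-fold and 263-fold lower. Clec4g changed by -14.18 on the log2 scale and Pecam1, the defining marker, by -3.36. The log2 of the summed endothelial signal ran from 8.36 to 9.12 on the quiescent arrays, from -0.25 to -0.18 with the control siRNA and from -0.34 to -0.23 with the Cav1 siRNA. All 12 were above background on the quiescent arrays, and 7 to 8 and 6 to 8 of 12 on the cultured ones. The part of endothelial RNA in the falls of Sox7, Sox17, Sox18, Klf2 and Klf4 was not tested.

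The SOXD genes, which have no activation domain of their own and partner SOX9 in cartilage, did not move together. Sox6 gave 0.32, -0.00 and 1.28 in quiescent cells, was above background on no cultured array, and was at least 103-fold lower with the control siRNA. Sox13 gave -1.21, -1.34 and -1.30 in quiescent cells and -2.62, -2.98 and -2.75 with the control siRNA, a fall of 2.83-fold (log2 change -1.50, SE 0.15, adjusted p = 2.2e-05). Both fell without overlap. Sox5 was represented by a probe made only of purines, with 25 A, 35 G and no C or T among its 60 bases, and its signals of 3.60, 4.45 and 3.99 in quiescent cells overlapped 4.08, 4.51 and 4.80 with the control siRNA (log2 change 0.45, adjusted p = 0.18). Of the 4 other kept Sox5 probes, the one that was above background on every array rose by 1.04 on the log2 scale (adjusted p = 0.00033). The remaining 3 were below background on all quiescent arrays; one of them was at least 1.36-fold higher with the control siRNA, and the others give no bound.

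The SOXE gene Sox9 changed in opposite directions on its 2 probes. The brighter probe (mm9 chr11:112647560-112647619) gave -4.13, -3.45 and -3.41 in quiescent cells, -2.90, -2.97 and -3.01 with the control siRNA and -2.86, -2.97 and -3.05 with the Cav1 siRNA. The groups did not overlap, and the rise was 1.63-fold (log2 change 0.71, SE 0.20, adjusted p = 0.011). The other probe, at mm9 chr11:112646642-112646701, gave -3.03, -2.92 and -3.47 in quiescent cells, -3.54, -4.21 and -4.11 with the control siRNA and -4.46, -4.08 and -4.00 with the Cav1 siRNA, and was called lower (log2 change -0.81, adjusted p = 0.013). Its sequence is shown because it was called lower where the brighter probe was called higher.
Sox9: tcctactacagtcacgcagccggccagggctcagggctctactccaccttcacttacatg
With the mean of both probes the change of Sox9 was -0.05 (adjusted p = 0.78), with normexp background correction it was -0.05 (adjusted p = 0.77), and on the shared slide alone it was 0.77 (adjusted p = 0.26). Of 22 alternatives, 18 kept the call of a rise, 2 kept the direction without passing and 2 turned it, with adjusted p from 0.0038 to 0.78.

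Sox8 and Sox10, the other SOXE genes, did not pass, with log2 changes of 1.01 (adjusted p = 0.091) and 0.43 (adjusted p = 0.077). Sox10 marks neural crest cells and glia, and of 8 neural crest and Schwann markers 3 rose and 3 fell, with Ncam1 and S100b higher by 8.07 and at least 1.82-fold, and Erbb3 changed by -6.41. The summed signal of that list ran from 2.98 to 3.38 on the quiescent arrays and from 3.75 to 4.10 with the control siRNA, with 5 to 6 and 7 to 8 of 8 markers above background. Of 6 bile duct markers tested, which include Sox9 itself, 2 rose and 3 fell: Krt23 changed by -6.25, Spp1 by 3.37 and Krt19, the defining marker, by -3.15. Their summed signal ran from 2.43 to 2.94 in quiescent cells and from 4.78 to 5.05 with the control siRNA. The 2 that rose were Spp1 and Sox9, and the median log2 change of the list was -1.23. The sum therefore does not show that these markers rose together. Of 10 mesothelial and portal fibroblast markers 6 rose and 4 fell, with Krt18, Krt8 and Fbln2 changed by -10.09, -9.27 and 8.19 and Wt1, the defining marker, by 7.07. Over all genes tested 42.1% rose and 26.0% fell. The part of the cells marked by these lists in the Sox9 signals was not tested.

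Genes known as SOX9 targets are given by their counts, beside the 42.1% of all genes that rose and the 26.0% that fell. All 6 SOX9-linked fibrosis genes tested rose, with Timp1, Col1a1 and Spp1 up by 8.73, 5.89 and 3.37 on the log2 scale. Col1a1, Fn1, Timp1 and Vim are also among the activation genes above, and Spp1 among the bile duct markers, so this is not a separate observation. Of 9 cartilage targets tested, which include Sox5 and Sox6, 6 rose and 1, Sox6, fell; Col11a1 and Col2a1, below background on the quiescent arrays, were at least 3.70-fold and 5.51-fold higher. From quiescent to Cav1-siRNA cells 3 of these 9 rose and 1 fell, where 40.4% and 27.2% of all genes did. Of 8 relatives with an HMG box or bound to one, 2 rose and 2 fell, with Lef1 and Tcf7, partners of beta-catenin, changed by -3.63 and -3.50 and Bbx by 1.19.

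The SOXB and SOXG genes tested changed by less than 2-fold. Sox1, a neural gene, fell by 0.99 on the log2 scale (adjusted p = 0.0011), Sox21 by 0.68 (adjusted p = 0.011) and Sox15, the SOXG gene, by 0.50 (adjusted p = 0.027). Sox14 gave -4.74, -3.05 and -6.45 in quiescent cells and -4.90, -5.11 and -4.80 with the control siRNA, with overlapping groups (log2 change -0.19, adjusted p = 0.82). None of these falls reached 2-fold, and Sox15 did not pass without control-siRNA array 2, control-siRNA array 3 or quiescent array 3.

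**Figure D3:**
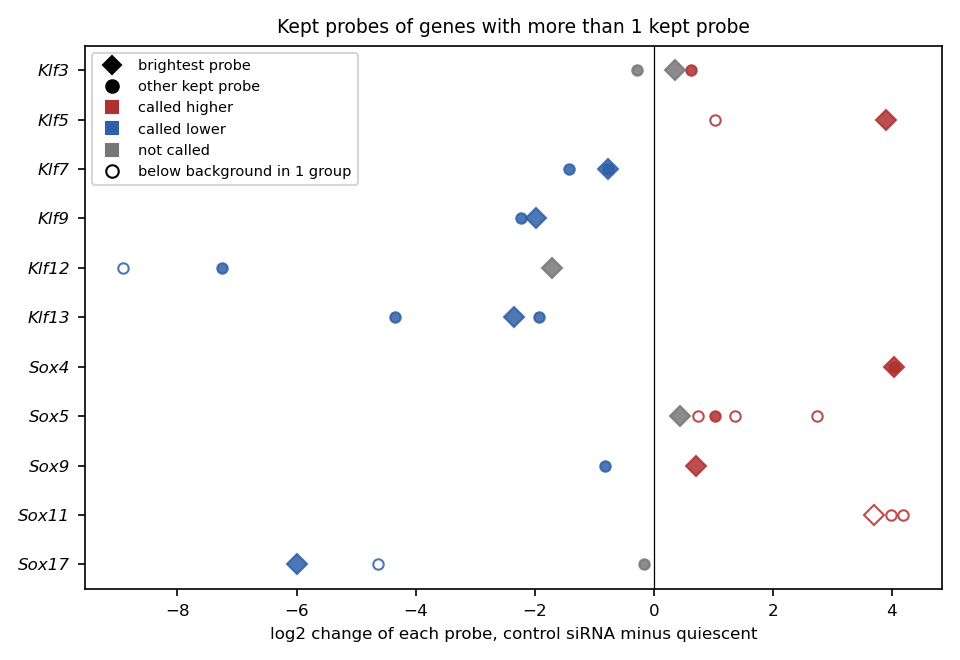
Log2 change from quiescent to control-siRNA cells of each kept probe of the 11 genes with more than 1 kept probe; diamonds are the brightest probe, which stands for the gene, circles the others, red called higher, blue called lower and grey neither, and open symbols mark probes below background on all arrays of 1 group, whose plotted size is not exact. All probes were called higher for 3 genes (Klf5, Sox4 and Sox11) and lower for 3 (Klf7, Klf9 and Klf13), 4 genes had some probes that were not called (Klf3, Klf12, Sox5 and Sox17), and the probes of Sox9 were called in opposite directions.

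Knockdown of Cav1 left no KLF or SOX gene past the threshold. Against control-siRNA cells, 0 of 31 genes passed in limma, as did 0 of all 23965 genes (background 0%). At an unadjusted p under 0.05 there was 1 member, Klf9, where 4.96% of all genes (1189) lay, and with array weights 656 genes passed but none of them a member. Klf1, Sox6, Sox7 and Sox18 were below background on all arrays of both groups, so the comparison says nothing of them, and Sox17 was below it on all Cav1-siRNA arrays. Among the 26 genes above background on at least 1 array of each group, the log2 changes ran from -0.95 (Sox8) to 0.30 (Sox14), and 23 lay within 0.5 of no change. The median of the 31 genes tested was 0.03 beside -0.04 for all genes. The confidence intervals, with a median half-width of 0.62, leave room for changes of about that size, so the genes are not shown to be alike in both groups.

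The 3 arrays of each group did not overlap for 12 genes (background 22.6%), 4 of them higher (8.61%; Klf5, Klf6, Klf16 and Sox14) and 8 lower (14.0%; Klf2, Klf3, Klf4, Klf9, Klf10, Klf13, Sox4 and Sox8) with the Cav1 siRNA. Klf9, with the values given above, changed by -0.33 (95% confidence interval -0.64 to -0.01, unadjusted p = 0.045, adjusted p = 0.99), and its second probe by -0.39. On that second probe control-siRNA array 1, from the other slide, stood highest at 2.13 beside 1.70 and 1.62, and with control-siRNA arrays 2 and 3 alone the brightest probe changed by -0.29. Klf13 changed by -0.25 (95% confidence interval -0.56 to 0.06) and Klf10, at 1.29, 1.57 and 1.64 with the Cav1 siRNA, by -0.38 (-1.02 to 0.25). Each of these differences was small beside the fall of Klf9 and Klf13 from quiescent cells.

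Dimmer genes had wider intervals. Sox17, above background on 2 control-siRNA arrays and on no Cav1-siRNA array, has no lower bound on its fold (unadjusted p = 0.068), and another Sox17 probe, below background in both groups, gives no fold either. Sox8 gave -5.58, -5.62 and -4.77 with the control siRNA and -6.55, -5.92 and -6.35 with the Cav1 siRNA, where 1 array was above background (log2 change -0.95, 95% confidence interval -2.04 to 0.14). Klf17 gave -5.33, -4.84 and -5.24 with the Cav1 siRNA (log2 change -0.58, 95% confidence interval -1.32 to 0.17). The regulators best known in stellate and endothelial cells had intervals that include 0: Klf2 changed by -0.22 (-0.77 to 0.34), Klf4 by -0.20 (-0.99 to 0.58), Klf6 by 0.14 (-0.34 to 0.62) and Sox9 by -0.00 (-0.45 to 0.45). No gene of the pathway and marker lists passed in this comparison.

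**Figure D4:**
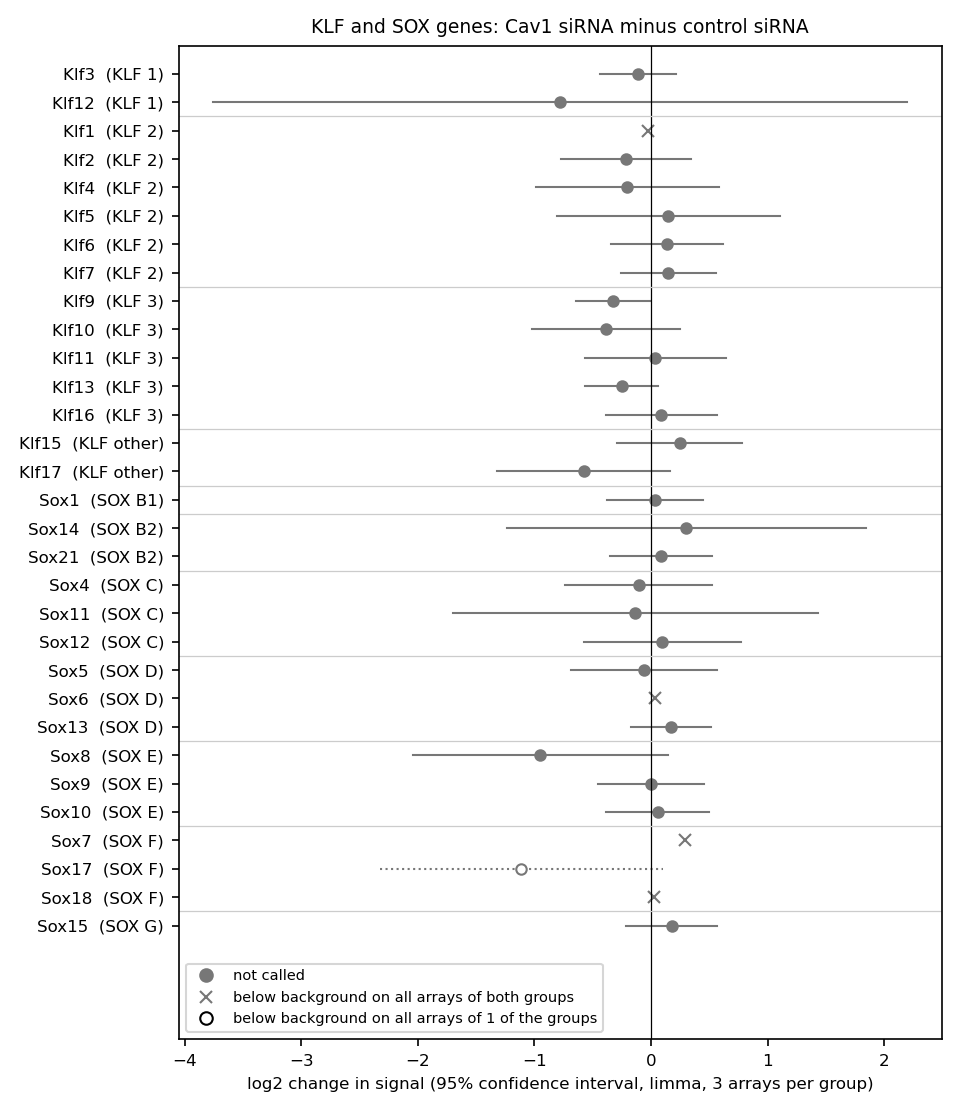
Log2 change from control-siRNA to Cav1-siRNA cells for the 31 genes tested, ordered by subfamily, with 95% confidence intervals from limma (3 arrays per group). All points are grey because no gene was called; the interval of Klf9 (-0.64 to -0.01) is the one that does not reach 0. The open point, Sox17, was below background on all Cav1-siRNA arrays, and crosses mark Klf1, Sox6, Sox7 and Sox18, below background on all arrays of both groups and drawn without an interval.

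Cav1-siRNA cells were also compared with quiescent cells. In this comparison, which shares its quiescent arrays with the first, 21 of 31 genes passed (background 67.6%), 6 of them higher (40.4%) and 15 lower (27.2%). Among them, Klf1, Klf5, Sox6, Sox7, Sox11, Sox12, Sox17 and Sox18 entered only through groups where they were high. The quiescent arrays lay on slide 1 and the Cav1-siRNA arrays on slide 2, and with the slide as a block 16 passed (42.3% of all genes), without Klf4, Sox1, Sox9, Sox11 and Sox21. Klf2 changed by -2.91 where control-siRNA cells gave -2.70, Klf4 by -1.80 and -1.60, Klf15 by -8.19 and -8.44, Klf5 by 4.05 and 3.90, and Sox4 by 3.93 and 4.03. The brighter Sox9 probe changed by 0.71 in both, while the other changed by -1.04 here (adjusted p = 0.0036), and Sox9 did not pass with normexp or with the mean of its probes. Sox15, which passed with the control siRNA at -0.50, was at -0.32 with the Cav1 siRNA (adjusted p = 0.12), and the test of the difference between the siRNA groups gave 0.18 (95% confidence interval -0.21 to 0.57). Sox21 did not pass without quiescent array 3, Cav1-siRNA array 2 or Cav1-siRNA array 3, Klf12 passed without quiescent array 1, and Sox10 passed without quiescent array 3 or Cav1-siRNA array 3.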

How the data were processed

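Spot files from Agilent Feature Extraction 10.7.1.1 hold the deposited processed signal, an intensity on a linear scale with background subtracted, per the file headers; background flags were also read. The deposited intensity was put on the log2 scale here, each array's 75th percentile was subtracted, and spots of a probe were averaged without outliers. Probes entered the tests if a share of 0.5 or more of their spots exceeded background clearly on each array of some group, and the brightest kept probe stood for its gene. Array-wide, 51.5 to 69.0% of probes were above background, and the number of arrays limits precision.

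All 9 arrays were fitted with limma (version 3.58.1, under R 4.3.3; two-sided moderated tests), with Benjamini-Hochberg adjustment over 23965 genes and calls under 0.05; the script was tested on simulated data. Single probes were adjusted over all 36817 of them that were kept. Per the file headers, coordinates of probes refer to mm9; promoters are from RefSeq, and exon annotation on mm9 was not used here. Full values are given for Sox9, Klf2, Klf4 and Klf6, the 10 largest called rises and falls (6 rose), the 6 smallest p-values after Cav1 siRNA, the 3 largest changes of each list and members whose probes disagree; other members were added after their values were seen. Members and lists were chosen with earlier results of these data known. One list gene that this rule would name is not reported here.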

Additional observations from a re-analysis of the deposited data

How the results depend on the processing

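From quiescent to control-siRNA cells, 14 to 26 members passed over 22 alternatives, and 14 came from the shared slide alone. Leaving out 1 array gave 21 to 25. A filter on all 9 arrays kept 14 of the 22 calls and added Klf3. Klf1, Klf5, Sox6, Sox7, Sox11, Sox12, Sox17 and Sox18, with the largest changes among them, were then not tested. With median scaling 9 rose and 14 fell, beside 6 and 16; the median of all genes was then 0.47, beside 0.32, and -0.12 with normexp. Sox9 reversed to -0.046 with normexp and -0.054 with the mean of its probes; beyond its probes' opposite directions the cause was not tested. For Cav1 siRNA against quiescent cells, 13 passed with a filter on all 9 arrays, which left 18 genes. After Cav1 siRNA against the control, 0 members passed in all 22. With a replicate block 23 members passed for quiescent against control siRNA, 0 for control against Cav1 siRNA and 21 for quiescent against Cav1 siRNA. Same-numbered arrays of different groups correlated at -0.11 to 0.17, and differently numbered arrays at -0.27 to 0.28. The former range lies within the latter, so these correlations cannot tell whether same-numbered arrays share an animal or culture. Over the alternatives Sox7 ran from -9.87 to -4.95, Sox12 from 0.66 to 4.82 and Klf5 from 1.08 to 4.46, so sizes near background are uncertain. Folds given as at least a value hold for the main processing only.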
